A study of Mus musculus with 2 samples.

Results

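The lysosomal genes described here were 38 genes chosen by name: peptidases, glycosidases, sulfatases and lipid hydrolases of the lysosome, the cystatins that inhibit its cysteine proteases, membrane proteins, the mannose 6-phosphate sorting machinery and the transcription factor Tfeb. Their probe sets were those with a single, matching gene symbol in the platform's annotation. In all, 37 of the 38 genes had such a probe set, 78 probe sets together, out of 18193 genes on the array, and Cd63 had none. The signals came from mammary epithelial cells of mice on day 18 of pregnancy. The null pool held RNA of 5 mice with the Cuzd1 knockout, made by homologous recombination in embryonic stem cells. The heterozygous pool held RNA of 5 Cuzd1-heterozygous littermates, so the control also carried 1 disrupted copy. Both groups were on a strain labelled C57BL/6, reached by repeated backcrossing, and the labels used here give no age. Each pool was hybridised to 1 Affymetrix 3′ expression array. There was no replicate array, so no test was possible and every difference is one between these 2 pools.

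Lysosomes are the acidic organelles in which cells break down proteins, glycans and lipids. Most of their soluble enzymes are made in the endoplasmic reticulum and receive a mannose 6-phosphate tag in the Golgi, by which receptors carry them to the lysosome. Many genes of this system are targets of TFEB, which binds E-box motifs with the core CACGTG near their start sites. In the mammary gland, lysosomal cathepsins are best known for their part in the loss of secretory cells after weaning.

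E-box motifs were looked for in RefSeq promoter windows of 300 bases (250 before and 50 after a start site, build GRCm38.p6), which were at hand for 32 of the 38 genes. Ctsb, Ctse, Ctsh, Cst6, Cstb and M6pr had no window in the table. The core CACGTG occurred in at least 1 window of 12 of the 32 genes (37.5%) and in 8.09% of all 27025 genes with a window. A gene with more windows could match more easily, and the shares were not matched for this. The longer TCACGTGA, which contains that core, occurred in 4 of the 32, Ctsa, Ctsd, Gla and Gnptg, and in 1.12% of all genes. Each motif is its own reverse complement, so reading 1 strand covered both. A match describes these letters only and is no measured binding site. The 4 upstream sequences below are shown because their windows held 2 or more copies of the core at or near the gene's outermost start site. Each gives the 250 bases before the start site, 5′ to 3′ along the gene, with CACGTG in capitals.
Nagpa, chr16:5204013-5204262, minus strand: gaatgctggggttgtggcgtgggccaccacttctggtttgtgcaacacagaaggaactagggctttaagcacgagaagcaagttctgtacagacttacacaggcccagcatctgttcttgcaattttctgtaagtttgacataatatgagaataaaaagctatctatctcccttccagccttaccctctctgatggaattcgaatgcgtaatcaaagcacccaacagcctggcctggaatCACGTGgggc
Lamp1, chr8:13158911-13159160, plus strand: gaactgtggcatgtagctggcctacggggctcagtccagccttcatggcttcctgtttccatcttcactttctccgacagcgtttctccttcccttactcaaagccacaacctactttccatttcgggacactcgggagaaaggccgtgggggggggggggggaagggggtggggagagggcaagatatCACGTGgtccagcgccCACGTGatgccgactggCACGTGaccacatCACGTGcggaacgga
Gla, chrX:134601006-134601255, minus strand: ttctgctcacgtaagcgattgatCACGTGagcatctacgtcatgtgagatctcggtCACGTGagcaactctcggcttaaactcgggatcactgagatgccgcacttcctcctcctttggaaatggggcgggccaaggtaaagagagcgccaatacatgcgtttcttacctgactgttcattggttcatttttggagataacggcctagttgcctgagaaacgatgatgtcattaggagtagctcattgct
Ctsd, chr7:142387828-142388077, minus strand: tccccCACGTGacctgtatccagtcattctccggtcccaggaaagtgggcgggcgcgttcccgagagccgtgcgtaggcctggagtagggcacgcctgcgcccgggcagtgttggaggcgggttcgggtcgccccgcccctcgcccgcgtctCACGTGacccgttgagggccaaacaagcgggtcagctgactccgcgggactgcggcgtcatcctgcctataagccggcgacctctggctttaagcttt
The Nagpa window held cores that began 10 bases before the start site and at base 6 after it, the latter outside the stretch shown. In Lamp1, 4 cores began 61, 45, 28 and 15 bases before the start site. In Gla both copies were the longer form, at 227 and 194 bases before it. In Ctsd they began 245 and 98 bases before it, the nearer one in the longer form. Nagpa was among the 2 genes that differed most between the pools, at least 3.97-fold lower in null cells, whereas Lamp1, with the most copies, read 2227 units in heterozygous and 2210 units in null cells.

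The cells had the signals of secretory mammary epithelium on both arrays. Wap and Csn2, both milk proteins, read 15403 and 14669 units in heterozygous cells and 13117 and 13592 units in null cells. The luminal keratin Krt8 read 8520 and 8875 units. Markers of other cells were present too. Of 18 macrophage and myeloid markers, 17 were measured, with a summed signal of 15020 units in heterozygous and 17889 units in null cells and a median log2 ratio of 0.32, and 14 of the 17 were above 0. All 6 fibroblast markers were measured, summing to 7097 and 10749 units, and all were above 0 with a median of 0.59. Col1a2 and Pdgfra of that list were at least 2-fold higher in the null pool, with log2 ratios of 1.60 and 1.61, and Col1a1 was at 0.06. Of all 11893 measured genes, 6427 were above 0 on the deposited scale and 1.12% were at least 2-fold higher. The 4 endothelial markers were also above 0, with a median of 0.33. Other lists leaned the other way on the deposited scale. Of the 8 luminal and alveolar markers 5 were below 0, with a median of -0.12 and a range of -0.52 to 0.26. Of the 5 myoepithelial markers 3 were below 0, with a median of -0.11 and a range of -0.69 to 0.53. Both measured adipocyte markers were below 0. Adipoq was at least 2-fold lower (-1.03), against 1.03% of all measured genes, and its null reading was below the floor. The targeted gene read close to the floor in both pools (32.4 and 33.98 units), which leaves the labels unchecked.

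Across the lysosomal genes the pools differed little, with 2 exceptions. A gene was called measured when its brightest probe set exceeded the array's floor on at least 1 array. This floor is the array's median signal, 34.2 units for the heterozygous and 32.5 units for the null array. All 37 genes with a probe set were measured and 35 of them were above both floors. Cst6, a secreted cystatin, was the 1 gene at least 2-fold higher in the null pool, where 1.12% of all 11893 measured genes were. Nagpa, an enzyme that finishes the mannose 6-phosphate tag, was the 1 gene at least 2-fold lower, where 1.03% of all measured genes were. At 1.5-fold the counts were again 1 higher and 1 lower, against 5.83% and 4.93% of all measured genes. The other 35 genes lay within 1.5-fold on the deposited scale, as did 89.2% of all measured genes. The shares of genes past 2-fold among these 37 thus rest on a single gene in each direction.

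**Figure D1:**
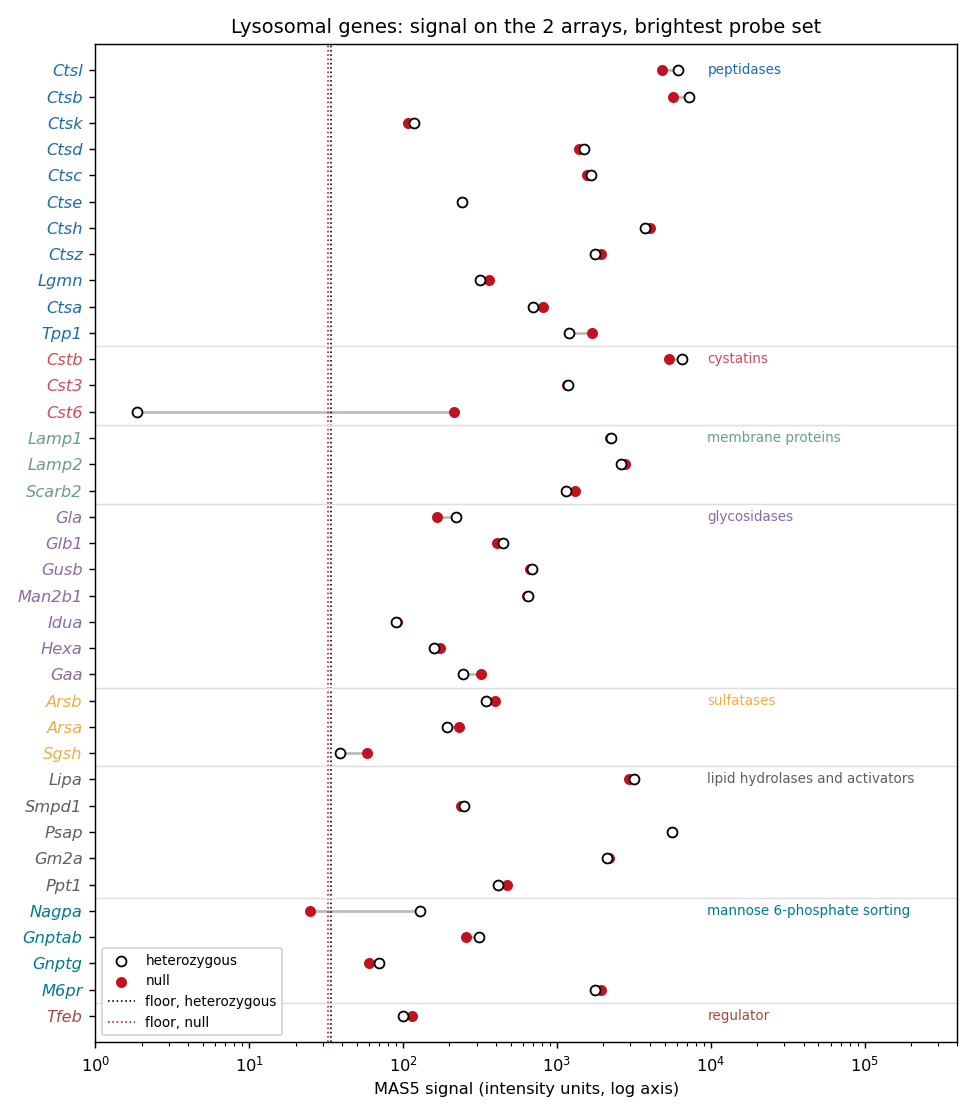
MAS5 signal of the brightest probe set of each of the 37 genes on the heterozygous (open circles) and null (red circles) array, in intensity units on a log axis, grouped by role and ordered by ratio within a role. Dotted lines mark each array's floor. The circles of most genes nearly touch, while Cst6 runs from 1.88 to 215 units and Nagpa from 129 to 24.9 units, each crossing the floors.

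The median log2 ratio of null over heterozygous was 0.01 over the 37 genes, with quartiles of -0.12 and 0.20. Over all measured genes it was 0.03, with quartiles of -0.18 and 0.23. On the deposited scale 20 of the genes were above 0 and 17 below. The 9 hybridization control probe sets, which are usually added in equal amounts to each array, had a median log2 ratio of -0.23. When the arrays were rescaled to them, 31 genes were above 0 and 6 below, and the median was 0.24 against 0.26 for all measured genes. On that scale Cst6 and Nagpa were still the genes past 2-fold, against 2.94% of all measured genes higher and 0.496% lower. At 1.5-fold, 5 genes were then higher (Cst6, Sgsh, Tpp1, Ppt1 and Gaa) against 15.1% of all measured genes, and 1 was lower against 2.08%. The signs of the small ratios below, and which genes are within 1.5-fold, therefore hold on the deposited scale only. In each range of signal the ratios of single genes had their own spread. Among all measured genes with a mean signal of 200 to 1000 units the robust SD was 0.26, and among those of 1000 to 4000 units it was 0.21. The 12 lysosomal genes in each of these ranges had robust SDs of 0.21 and 0.12. These spreads hold differences between genes as well as measurement error, and they do not stand in for replicates.

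**Figure D2:**
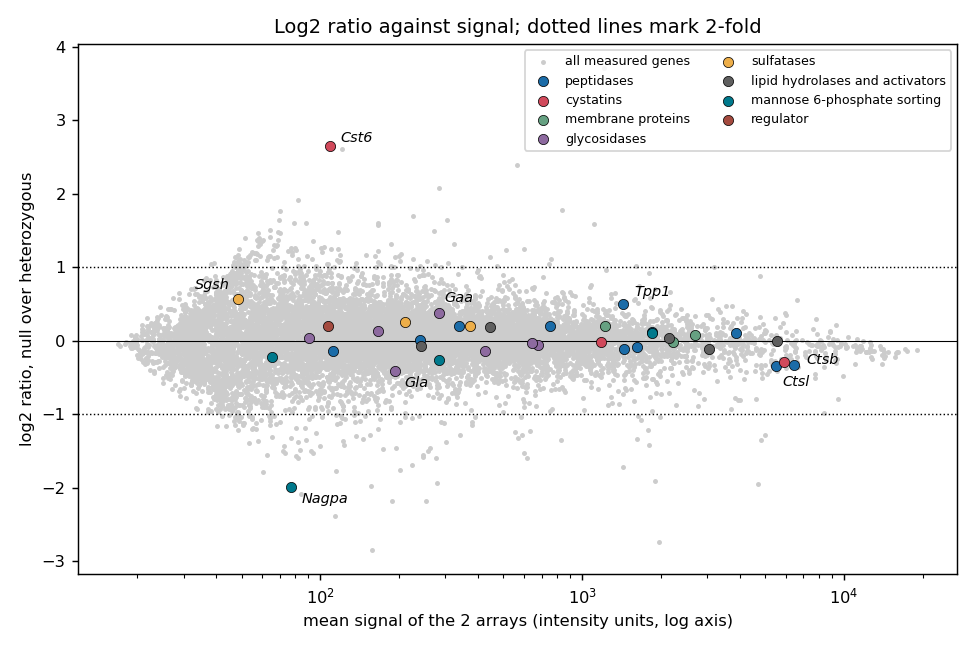
Log2 ratio of null over heterozygous against the mean signal of both arrays (intensity units, log axis) for all measured genes (grey) and the 37 lysosomal genes (coloured by role). Dotted lines mark 2-fold, and only Cst6 (2.65) and Nagpa (-1.99) of the coloured points lie beyond them. Both ratios are bounds set by the floor of the dimmer array.

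Cystatins are tight-binding inhibitors of papain-like cysteine proteases. Cst6 encodes cystatin E/M, which is secreted, inhibits legumain as well as cathepsins, and is best known from the skin. Its single probe set read 1.88 units in heterozygous cells and 215 units in null cells. The heterozygous reading was below the floor, at a level that 6.05% of probe sets on that array were at or below, and the null reading was well above it. Against the floor the signal was at least 6.29-fold higher in null cells, a log2 ratio of 2.65. This was the second highest ratio of the 11893 measured genes. Of 720 genes that were below the floor in heterozygous cells and above it in null cells, Cst6 had the highest null signal. Those genes were picked by the same readings that give the ratio, so this place describes Cst6 and adds no separate support. With the floor at the 75th percentile of each array the log2 ratio was 0.56, short of 2-fold. Genes within a similar range of mean signal (91.1 to 110 units) had a robust SD of 0.39. Cst6 falls in that range only as the mean of 2 very unlike readings, so this spread does not measure how unusual its ratio is. No other probe set was at hand for a check within the array.

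Of the markers of stratified skin epithelium, the 3 that were measured were lower in the null pool. Of 7 such genes, Krt1, Ivl, Dsg1a and Krtdap were below the floor on both arrays. Sbsn, Lor and Krt10 had log2 ratios of -0.46, -0.43 and -0.86, and the 3 measured markers summed to 1835 units in heterozygous and 1308 units in null cells. Most of each sum was Sbsn, at 1569 and 1140 units. The part of such cells in the Cst6 signal was not tested.

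The other cystatins differed far less. Cst3, cystatin C, the main secreted inhibitor of cathepsins in body fluids, read 1183 and 1169 units, a log2 ratio of -0.02. Cstb, cystatin B, which guards the cytosol against leaked cathepsins, read 6452 and 5309 units at its brightest probe set (-0.28) and 2909 and 2757 units at the other (-0.08). Both Cstb probe sets were lower in the null pool on the deposited scale, but the dimmer one had a ratio of 0.15 on that of the hybridization controls. Of the related genes listed with them, Cst7, Cst9 and Stfa3 were below the floor on both arrays.

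Lgmn encodes legumain, the asparaginyl endopeptidase that Cst6 inhibits. It read 316 units in heterozygous and 362 units in null cells, a log2 ratio of 0.20 at its single probe set. Genes of similar signal had a robust SD of 0.21, so the difference was within the spread of single genes.

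The cathepsins and other peptidases gave 6 ratios above 0 and 5 below (9 and 2 on the scale of the hybridization controls), with a median of 0.01 over 11 genes and a range of -0.34 to 0.51. Ctsb and Ctsl, the abundant cysteine cathepsins, were at the low end. Ctsb read 7174 units in heterozygous and 5698 units in null cells, a log2 ratio of -0.33. Its 4 dimmer probe sets had ratios of -0.20, -0.19, 0.00 and 0.02, so the 3 brightest were lower in the null pool, of which 1 stayed lower on the scale of the hybridization controls. Ctsl read 6122 and 4834 units (-0.34), and its dimmer probe set read 133 and 96.5 units (-0.46). Both Ctsl probe sets lay on the same side.

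Ctsb, Ctsl, Cstb and Psap were the 4 genes with a mean signal of 4000 to 8000 units. Of these, Ctsb, Ctsl and Cstb lay, at their brightest probe sets, below the lower quartile of all 146 measured genes in that range. The quartiles of those genes were -0.21 and 0.04 and their median was -0.08. The next brightest probe sets of Ctsb and Cstb (-0.20 and -0.08) were not below that quartile, while that of Ctsl (-0.46) was. Psap, the precursor of the saposins that help break down sphingolipids, read 5572 and 5574 units. On the scale of the hybridization controls the ratios of Ctsb, Ctsl and Cstb were -0.10, -0.11 and -0.05. That rescaling shifts nearly all genes by the same amount, so it could not change their place among the other genes. With quantile normalization the ratios of Ctsb, Ctsl and Cstb were -0.24, -0.25 and -0.19, and the quartiles of the range were not taken anew.

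The remaining cysteine cathepsins had ratios of -0.14 to 0.12 at their brightest probe sets. Ctsh, an aminopeptidase, read 3709 and 4003 units (0.11), with 0.12 at its other probe set. Ctsz, a carboxypeptidase, read 1774 and 1925 units (0.12), with 0.24 and 0.28 at 2 dimmer ones. The 3 Ctsz probe sets were all higher in the null pool. Ctsc, which activates the serine proteases of granulocytes and mast cells, read 1670 and 1573 units (-0.09), while a dimmer probe set read 52.7 units in heterozygous cells and 29.9 units, below the floor, in null cells. Ctsk, the collagen-degrading cathepsin of osteoclasts and fibroblasts, read 117 and 107 units (-0.14).

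The aspartic cathepsins were close to equal. Ctsd read 1502 units in heterozygous and 1392 units in null cells (-0.11). Ctse, a non-lysosomal relative found in epithelia and immune cells, read 239.9 and 241 units (0.01), with -0.38 at a dimmer probe set. Ctsa, the carboxypeptidase that protects beta-galactosidase and neuraminidase, read 702 and 809 units (0.20).

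Tpp1, tripeptidyl peptidase 1, a serine protease that is lost in a childhood form of neuronal ceroid lipofuscinosis, had the highest ratio of the peptidases. It read 1188 units in heterozygous and 1688 units in null cells, a log2 ratio of 0.51 or 1.42-fold. The dimmer probe set read 188 and 248 units (0.40), so both were higher in the null pool. Single genes of similar signal had a robust SD of 0.23, and 942 of the 11893 measured genes had a higher ratio.

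The mannose 6-phosphate genes act in a series. The phosphotransferase encoded by Gnptab and Gnptg adds phosphate capped by N-acetylglucosamine, the uncovering enzyme encoded by Nagpa removes the cap, and receptors such as M6pr carry the tagged enzyme. Nagpa read 129 units in heterozygous cells and 24.9 units in null cells. The null reading was below the floor, so the signal was at least 3.97-fold lower, a log2 ratio of -1.99. This was the eighth lowest ratio of all measured genes. Of 563 genes that were above the floor in heterozygous cells and below it in null cells, 3 had a heterozygous signal as high, Nagpa included. That set too was picked by the readings that give the ratio, so the place adds no separate support. Its other probe set was below the floor on both arrays (4.27 and 3.61 units) and gives no ratio. With the floor at the 75th percentile Nagpa was below it on both arrays and could not be compared.

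The neighbouring steps did not show a difference of that size. Gnptab read 309 and 257 units (-0.26), with -0.32 and -0.21 at its other probe sets, all 3 lower in the null pool, although the ratio of -0.21 became 0.02 on the scale of the hybridization controls. Gnptg, with a single probe set, read 70.2 and 60.3 units (-0.22). M6pr read 1778 and 1919 units (0.11), with 0.08 at its other probe set. On the scale of the hybridization controls the brightest probe sets of Gnptab and Gnptg had ratios of -0.04 and 0.01, and Nagpa had -1.76. Igf2r, the other mannose 6-phosphate receptor, read 620 and 540.3 units (-0.20).

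The glycosidases, which trim glycans from their ends, gave 3 ratios above 0 and 4 below (6 and 1 on the scale of the hybridization controls), with a median of -0.03. Gaa, which degrades glycogen and is lost in Pompe disease, read 246 and 320 units (0.38), with 0.27 at its other probe set. Gla, alpha-galactosidase A, which is lost in Fabry disease, read 220 and 166 units (-0.41). A dimmer Gla probe set read 51.5 units in heterozygous cells and 8.14 units, below the floor, in null cells. These were the outermost glycosidases on either side, and each had a dimmer probe set on the same side.

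Gusb, beta-glucuronidase, read 693 and 666 units (-0.06) at its brightest probe set and 299 and 226 units (-0.41) at the other. Glb1, the lysosomal beta-galactosidase, read 446 and 407 units (-0.13). Man2b1, alpha-mannosidase, read 651 and 637 units (-0.03), while a dimmer probe set read 63.1 units in heterozygous cells and 15.4 units, below the floor, in null cells. Hexa, the alpha subunit of beta-hexosaminidase, had a ratio of 0.14 and Idua, which acts on heparan and dermatan sulfate, 0.03. For Gusb and Man2b1 the size of the difference thus depended on the probe set.

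All 3 sulfatases were higher in the null pool, with a median log2 ratio of 0.25. Arsa, which removes sulfate from sulfatide, read 193 and 229.7 units (0.25), where genes of similar signal had a robust SD of 0.30. Arsb, which acts on dermatan sulfate, read 347 and 398 units (0.20), where that SD was 0.21. Sgsh, which acts on heparan sulfate, had the highest ratio of the 3 (0.56) but read only 39.2 and 57.9 units, close to the floor. Genes of similar signal to Sgsh had a robust SD of 0.52, and its other probe set was below the floor on both arrays. Each of the 3 ratios was thus near or within the spread of single genes.

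Genes of lysosomal lipid breakdown had a median ratio near 0 over 5 genes, with a range of -0.12 to 0.19. Lipa, the acid lipase that frees cholesterol and fatty acids, read 3185 and 2938 units (-0.12), with -0.28 and 0.06 at its other probe sets. Gm2a, the GM2 ganglioside activator, read 2110 and 2174 units (0.04). Smpd1, acid sphingomyelinase, read 249 and 237 units (-0.07). Ppt1, which removes palmitate from proteins, read 415 and 474 units (0.19), with 0.39 at a second probe set above both floors. None of these was 1.5-fold apart on the deposited scale, but Ppt1 had a ratio of 0.62 on that of the hybridization controls, where its other probe set was the brighter.

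The membrane proteins were close to equal at their brightest probe sets. Lamp1 had a ratio of -0.01. Scarb2, the receptor that brings beta-glucocerebrosidase to the lysosome, read 1135 and 1310 units (0.21), with 0.20 at its other probe set. Lamp2, whose alternative last exons give several isoforms, had 4 probe sets above both floors that did not share a sign. They read 2618 and 2778 units (0.09), 2560 and 2815 units (0.14), 1552 and 1268 units (-0.29), and 1013 and 907 units (-0.16). The brighter pair was higher and the dimmer pair lower in the null pool, though the ratio of -0.16 became 0.07 on the scale of the hybridization controls. The labels do not say which isoform each probe set reads.

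**Figure D3:**
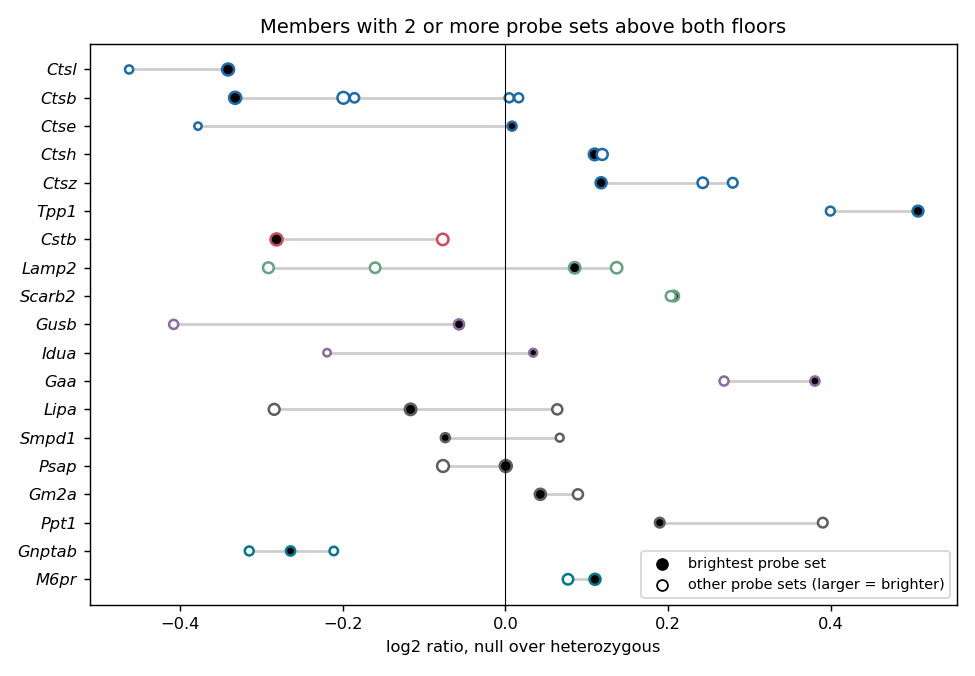
Log2 ratio of null over heterozygous for each probe set above both floors, for the 19 genes with 2 or more of them. Filled circles are the brightest probe set, open circles the others, larger circles are brighter and outlines are coloured by role. Lines span the probe sets of a gene: Scarb2 and Ctsh are tight, whereas those of Ctsb, Lamp2, Lipa, Ctse and Gusb spread by over 0.3.

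Agreement between probe sets could be compared for 19 genes with at least 2 above both floors. Within a gene, the brightest and next brightest probe set differed in log2 ratio by a median of 0.12 and at most 0.39 (Ctse). Over all 4722 genes with such a pair the median difference was 0.20. The signs of both ratios were the same in 15 of the 19. Probe sets of a gene read the same pair of RNA pools, so this covers variation between probe sets and not between mice. Of the 27 probe sets other than the brightest that were above both floors, 0 differed from the brightest by 2-fold or more in ratio. A further 4, of Ctsc, Gla, Man2b1 and Arsb, were above 1 floor only, so that their ratios are bounds and this difference cannot be sized.

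Tfeb, the regulator, read 99.1 units in heterozygous and 114 units in null cells (0.20), where genes of similar signal had a robust SD of 0.39. Of 8 other regulators of lysosomal gene expression and nutrient sensing, 7 were measured, with 2 above 0, 5 below and a median of -0.24 (3, 4 and -0.01 on the scale of the hybridization controls). Tfe3, a close relative of TFEB, read 512 and 435 units (-0.24). Tfec was below the floor on both arrays. Of the 7, 0 were 1.5-fold apart, against 5.83% of all measured genes higher and 4.93% lower.

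The wider set of lysosomal genes was similar in spread. Of 74 further genes of the lysosome and its regulators, 63 had a probe set and 59 were measured. Their median log2 ratio was -0.01, with 29 above 0 and 30 below (48 and 11 on the scale of the hybridization controls), and 0 were at least 2-fold apart in either direction, against 1.12% of all measured genes higher and 1.03% lower. At 1.5-fold, 3 were higher and 0 lower, against 5.83% and 4.93%, so the share of higher genes was close to that of all genes. On the scale of the hybridization controls 6 were 1.5-fold higher (10.2%), against 15.1% of all measured genes. Laptm5 was the 1 gene past 2-fold there (1.69%), against 2.94% of all measured genes higher. The 14 measured subunits of the proton pump, which acidifies the lysosome, had a median of -0.08 and a range of -0.50 to 0.14. The 16 channels, carriers and sorting proteins had a median of 0.02 and the 15 other hydrolases -0.02.

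The 3 genes past 1.5-fold were Laptm5, Ctsf and Ctsw. Laptm5, a lysosomal membrane protein of blood cells, read 113 and 209 units (0.89). Ctsw, a cathepsin of cytotoxic lymphocytes, read 85.2 and 136 units (0.67), and Ctsf read 96.6 and 156 units (0.69). Ctss, the cathepsin of antigen-presenting cells, read 1382 and 1648 units (0.25), and was picked after its values were seen. Beside these, 14 of the 17 measured macrophage and myeloid markers were above 0. The highest was Ptprc, the leukocyte surface protein CD45, at 188 and 344 units (0.87). Lyz1 and Cd14, the brightest of that list, had ratios of 0.33 and -0.15. The part of such cells in the signals of the lysosomal genes was not tested. In pooled bulk RNA, fewer cells of a type and less RNA per cell cannot be told apart.

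**Figure D4:**
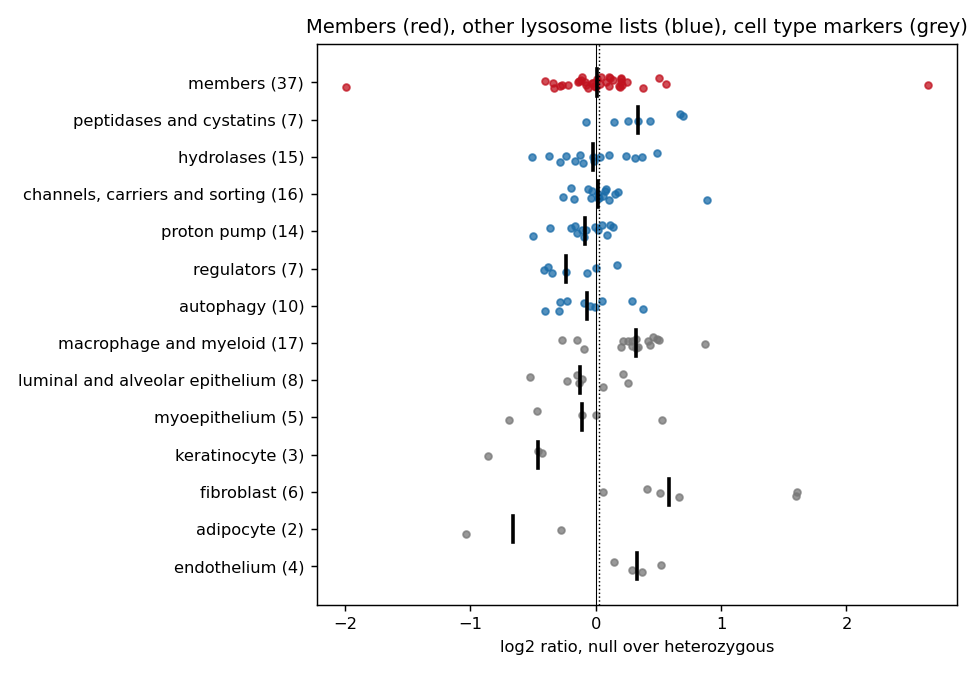
Log2 ratio of null over heterozygous for each measured gene of the 37 lysosomal genes (red), the other lysosome and autophagy lists (blue) and the cell type markers (grey), with the number measured in brackets. Thick bars are medians and the dotted line is the median of all measured genes (0.03). Apart from Cst6 and Nagpa the red points lie between -0.41 and 0.56, while the fibroblast markers (median 0.59) and macrophage markers (0.32) lie mostly above 0. The 2 adipocyte and 3 keratinocyte markers lie below 0.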

How the data were processed

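The labels' protocols record that inguinal glands were digested with hyaluronidase and collagenase and that the washed cell pellet was used, with no sort. The authors deposited linear MAS5 signal intensities, 1 for each probe set on each array. The submitters' processing notes name Affymetrix Expression Console version 1. A genome build was not given in the sources used here, and detection calls were not analysed. Of 45101 probe sets, 64 were controls and 34958 had 1 gene symbol, updated through Entrez IDs in RefSeq for 34741. Each array was floored at its median over 45037 non-control probe sets, the probe set of highest mean signal stood for its gene, and log2 ratios of null over heterozygous were taken (Python 3.11.15, numpy 2.4.6, pandas 2.3.3). A ratio with 1 array at the floor is a bound. A robust SD is the scaled median absolute deviation, given for single genes within 20 bins or stated ranges of signal. Genes described in full were those at least 1.5-fold apart or brightest in their role, and the rest were added to account for every gene. The procedure was tested on simulated data. Differences were planted there only in genes of higher mean signal than Cst6 and Nagpa, so the test did not cover dim genes that cross the floor. The genes and lists were chosen with earlier results of these data known. With 1 array per genotype no test was run, and the number of arrays limits the precision. Alternatives were other floors, scalings, probe set rules and a 1.5-fold threshold.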

Additional observations from a re-analysis of the deposited data

How the results depend on the processing

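Cst6 stayed the 1 gene at least 2-fold higher, and Nagpa the 1 gene at least 2-fold lower, with the floor at the 25th percentile, with no floor, with quantile normalization, on the scale of the hybridization controls, with the median of genes above both floors set to 0, with the median over probe sets and at a 1.5-fold threshold. Of these settings, the lower floor, no floor, the median over probe sets and the 1.5-fold threshold could add genes but not remove these 2. Cst6 and Nagpa each have 1 measured probe set, and a lower floor only widens their ratios. The 2 rescalings moved their ratios by at most 0.23. With the floor at the 75th percentile 31 genes were measured and the counts were 0 higher and 0 lower, since the signals of Cst6 and Nagpa lie near or below that floor. The median log2 ratio of the lysosomal genes moved to 0.24 on the scale of the hybridization controls, which shifted 36 of the 37 genes by 0.23 (Ppt1 changed its brightest probe set and went to 0.62), and lay between -0.02 and 0.02 under the other settings. The bound for Cst6 depended on the floor, with a log2 ratio of 0.56 at the 75th percentile and 4.35 at the 25th. With no floor its plain ratio was 6.84, which rests on a heterozygous reading in the background and is no bound. Nagpa was above the 25th percentile on both arrays, and its plain ratio there was -2.38, again with a null reading below the median. With the median over probe sets Ctsc had -0.39 and Man2b1 -0.49, because both have a dimmer probe set below the null floor. No paired analysis was possible because each genotype had 1 array and the labels carry no replicate numbers. Dim genes such as Sgsh, Gnptg and Idua read within a few-fold of the floor, which limits what their ratios show.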

Other observations

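Autophagy delivers cytoplasm and organelles to the lysosome, and its genes share regulators with those of lysosomal enzymes. All 10 autophagy genes listed were measured, with 3 log2 ratios above 0, 7 below and a median of -0.07 (6, 4 and 0.16 on the scale of the hybridization controls), and 0 were 1.5-fold apart on the deposited scale, against 5.83% of all measured genes higher and 4.93% lower. On the scale of the hybridization controls Wipi1 was past 1.5-fold (0.60), against 15.1% of all genes. Map1lc3b, which coats the autophagosome membrane, read 5909 units in heterozygous and 4461 units in null cells (-0.41). Sqstm1, the receptor p62 that tethers cargo to it, read 5788 and 4748 units (-0.29). At their brightest probe sets both lay below the lower quartile (-0.21) of the 146 measured genes with a mean signal of 4000 to 8000 units, the range that also holds Ctsb and Ctsl. Map1lc3a, a paralogue of Map1lc3b, read 1527 and 1862 units (0.29), and Wipi1, which acts early in autophagosome formation, read 215 and 279.5 units (0.38). These genes were picked as examples after their values were seen, and no replicate array tests the differences.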
